A study of Mus musculus with 8 samples.

Results

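Mouse leukaemia cells of 1 clone, called clone 2, were compared after induced deletion of Runx1 and Cbfb and after the vehicle alone. The members were the 4 of 8 arrays of the series whose titles name clone 2. In this clone 2 arrays came from cultures labelled Runx1/Cbfb-deleted and 2 from cultures labelled Runx1/Cbfb-intact, and a deleted and a control culture with the same replicate number form a pair. The cells were c-Kit+ bone marrow cells of mice that carry floxed Runx1 and floxed Cbfb, made to express the fusion MLL-AF9 together with CreERT2, and grown in cytokine-enriched M3434 methylcellulose. CreERT2 is a Cre recombinase that enters the nucleus when 4-hydroxytamoxifen (4OHT) binds it. Deleted cultures received 4OHT at 1 µM and control cultures received ethanol, and RNA was taken at 24 h. All 8 cultures, controls included, carried the floxed genes, MLL-AF9 and CreERT2, so effects of 4OHT or of active Cre itself are part of every difference given here and cannot be told apart from the deletion. A clone is a single line of cells, and its 2 pairs are repeat experiments on that line.

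RUNX1 is a DNA-binding transcription factor that blood cells need at many steps of their development, and CBFB is the partner protein that all RUNX proteins share and that steadies their hold on DNA. In granulocyte and monocyte precursors RUNX proteins act with factors such as PU.1 and C/EBP alpha at genes for granule proteins, growth factor receptors and surface molecules. MLL-AF9 is a fusion found in acute myeloid leukaemia that keeps myeloid progenitors dividing in culture, with high Hoxa9 and Meis1.

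Values are probe-set levels on the log2 scale, so a difference of 1 is a doubling, and levels of different genes cannot be set against each other because each probe set binds with its own strength. Of 35556 probe sets, 21789 had 1 gene symbol, and the brightest of each gene gave 19938 genes, all of which were tested. The values of clone 2 arrays correlated at r between 0.991 and 0.996 over genes, and the array medians were 6.30 and 6.29 in the controls and 6.26 and 6.39 in the deleted cultures of replicates 1 and 2. Of the genes that mark myeloid progenitors, Mpo (myeloperoxidase) was between 13.02 and 13.18 and Elane (neutrophil elastase) between 13.27 and 13.36 on the 4 arrays. Both were near the highest value of the table (13.77), and neither passed the test for a difference. Of the same markers, Ms4a3 (-1.26 ± 0.15) and Kit (-0.43 ± 0.07) passed as lower, and Prtn3, Ctsg and Cd34 did not pass. Of the mast cell and basophil markers Cpa3 was between 4.29 and 4.42 and Mcpt8 between 7.78 and 8.52, and of the B cell markers Cd79a was between 4.39 and 4.70 and Pax5 between 5.85 and 6.09. Because probe sets differ in brightness, these levels do not show which cell types are absent.

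The targeted genes were read first, because they check the labels. Runx1 was at 10.31 in the control and 10.87 in the deleted culture of pair 1, and at 10.71 and 11.19 in pair 2. Its signal was higher in both cultures labelled deleted, by 0.52 ± 0.06 on the log2 scale (1.43-fold, moderated SE, n = 2 pairs, adjusted p = 0.000127). This signal does not show the deletion that the label states, so the cultures are called "labelled deleted". Runx1 was also higher in both clone 1 pairs (0.53 and 0.53). Cbfb, at 9.87 and 9.70 in pair 1 and 9.87 and 9.60 in pair 2, was lower in both pairs by values that did not pass (mean -0.22 ± 0.07, adjusted p = 0.389). The probes of a whole-transcript probe set can lie outside the exons that Cre removes, and such probes do not measure the deletion. Whether recombination took place cannot be read from these 2 signals. Runx3, a related factor that uses the same partner, differed by 0.05 ± 0.07 and did not pass (adjusted p = 1), and Runx2 was not analysed here.

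The comparison of labelled deleted with control cultures in clone 2 found 136 of 19938 genes past an adjusted p of 0.05, which is 0.682% of the genes tested. Of these, 57 were higher (0.286%) and 79 lower (0.396%). At an unadjusted p under 0.05 there were 1031 genes (5.17%). The test was limma on log2 values with the pair as a block, the spread was estimated from the pairs of both clones and from genes of like level, and p-values were two-sided and Benjamini-Hochberg adjusted over all 19938 genes. Most differences were modest, with a median size of 0.54 on the log2 scale. In all, 61 genes changed by over 1.5-fold (28 higher, 33 lower) and 13 by over 2-fold (6 higher, 7 lower). The count depends on the pairing and on the spread borrowed from other genes. Within clone 2 alone, same-numbered arrays deviated together from their group means at r = 0.25 over genes. Without the replicate block 4 genes passed (Btla and Extl3 higher, Cd69 and Gm8773 lower), and with the same prior spread at every level 3 did (F13a1 and Mamdc2 higher, Hvcn1 lower). In a test of all 35556 probe sets, named or not, none passed in limma, against 1269 with an unadjusted p under 0.05. An exact permutation test of 2 against 2 arrays that ignores the pairs cannot give a two-sided p below 0.333, and one within pairs has fewer arrangements.

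The 2 pairs moved apart over genes in general and together over the genes that passed. Across all genes, which are not independent replicates, the pair 1 and pair 2 differences correlated at r = -0.13 (Spearman's rho = -0.26). Both pairs differed in the same direction for 40.3% of genes. All 136 genes that passed had the same direction in both pairs, which the test itself favours. Both labelled deleted arrays were above both controls for 49 of the 57 genes that rose (9.93% of all genes) and below both for 68 of the 79 that fell (12.5%). Past a difference of 0.5 in both pairs lay 23 genes that were higher (0.115%) and 29 that were lower (0.145%), against 3 genes that were past it in opposite directions (0.015%). Pair 1 was the larger of the pairs for 48 of the 57 genes that rose (median 0.64 against 0.48), and pair 2 for 67 of the 79 that fell (median -0.43 in pair 1 against -0.59 in pair 2). The balance of the directions rests on which pair is used. From pair 2 alone 665 genes passed, 161 higher and 504 lower, and from pair 1 alone 266 passed, 176 higher and 90 lower, with the spread then taken from clone 1.

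**Figure D1:**
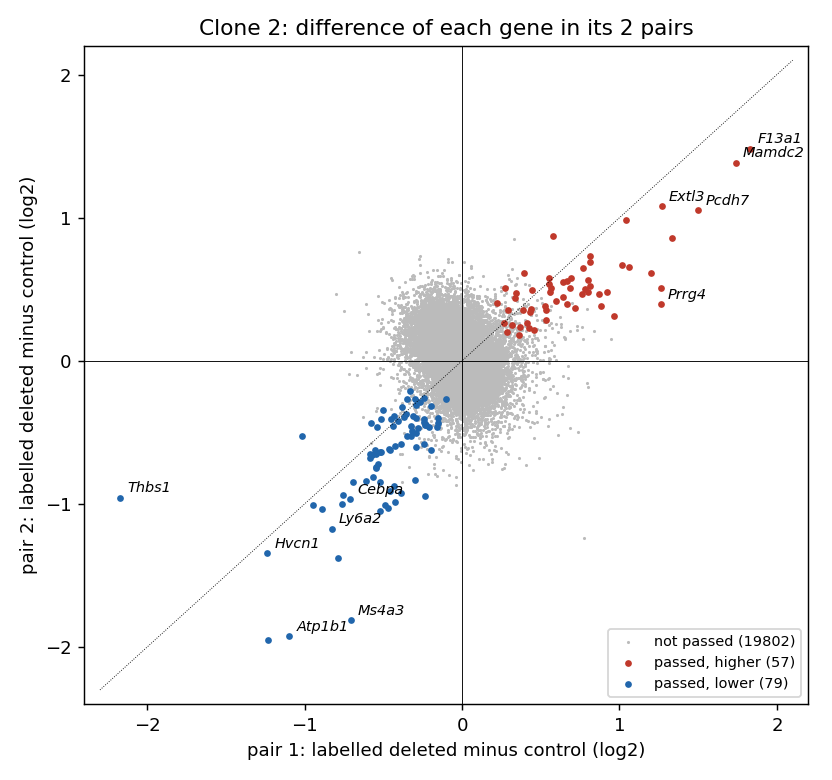
Each point is 1 of 19938 genes, with the log2 difference (labelled deleted minus control) in pair 1 of clone 2 on the x axis and in pair 2 on the y axis. Red points are the 57 genes that passed and were higher, blue points the 79 that were lower, grey points the rest, and the dotted line marks equal differences. The grey cloud tilts downward (r = -0.13), the red points lie mostly below the line and the blue points mostly below it too, so that pair 1 is larger among rises and pair 2 among falls.

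The median difference also varied with the level of the genes. When all genes were split into 5 equal groups by mean level, the median difference in pair 1 was -0.05, -0.09 and -0.05 in the 3 dimmer groups and 0.03 and 0.02 in the 2 brighter ones. In pair 2 the signs were turned, at 0.06, 0.13 and 0.11 in the dimmer groups and -0.09 and -0.07 in the brighter. The labelled deleted array of pair 2 also had the highest median (6.39) and the narrowest spread of values of the clone 2 arrays. In clone 1 the medians had the same signs by replicate number, at -0.07 in the second and 0.07 in the fourth group of pair 1 and at 0.03 and -0.01 in those of pair 2. The part of these shifts in the correlation of the pairs, in the counts from single pairs and in small differences was not tested.

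**Figure D2:**
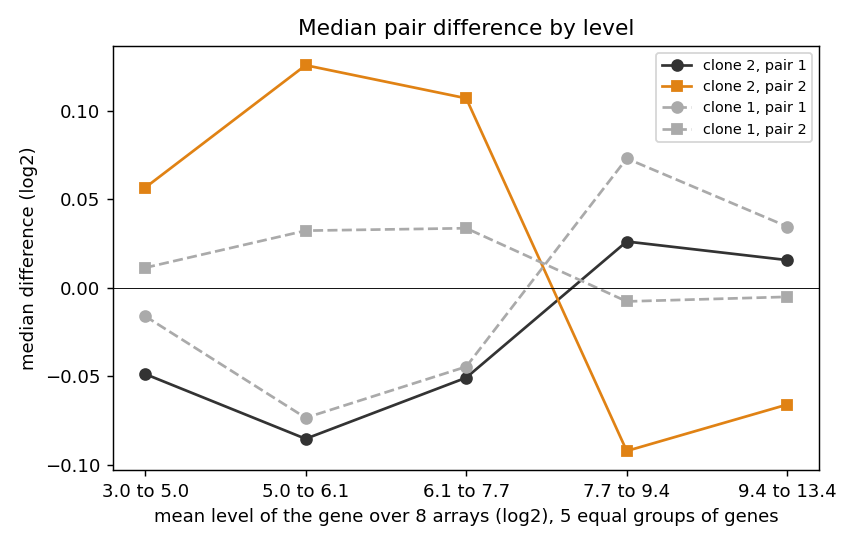
Median log2 difference (labelled deleted minus control) of all genes in 5 equal groups by mean level over the 8 arrays, for each pair of clone 2 (solid) and of clone 1 (dashed grey). In clone 2, pair 1 lies below 0 for dim genes and above it for bright genes and pair 2 does the reverse, with medians between -0.09 and 0.13, and the clone 1 pairs have the same signs with smaller values in pair 2.

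The largest rises were those of F13a1, Mamdc2, Pcdh7 and Extl3. F13a1, the catalytic subunit of clotting factor XIII and a gene that monocytes and macrophages express strongly, was at 7.91 and 9.01 in the controls and at 9.74 and 10.49 in the labelled deleted cultures. It rose in both pairs (1.83 and 1.48), 3.15-fold on average (log2 1.66 ± 0.08, adjusted p = 3.13e-08). Mamdc2, which encodes a secreted proteoglycan, went from 7.97 to 9.71 in pair 1 and from 8.85 to 10.24 in pair 2. Every labelled deleted value lay above both controls, and the rise was 2.95-fold (1.56 ± 0.10, adjusted p = 5.4e-07). Extl3, a glycosyltransferase that starts heparan sulfate chains, went from 6.77 to 8.04 and from 6.89 to 7.97 (1.17 ± 0.13, adjusted p = 0.000223). Pcdh7, a protocadherin of the cell surface, went from 7.03 to 8.53 and from 7.66 to 8.71 (1.28 ± 0.13, adjusted p = 9.61e-05). For Extl3 and Pcdh7 too the groups did not overlap.

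Ly96, Btla, Glp1r, C5ar1, Tlr13 and Plxnc1, which encode receptors or parts of them, were also among the 20 largest rises. Ly96 encodes MD-2, which binds lipopolysaccharide for Toll-like receptor 4, and it went from 8.55 to 9.88 and from 8.31 to 9.16 (1.09 ± 0.11, adjusted p = 5.48e-05). Tlr13, a receptor for bacterial ribosomal RNA, rose by 0.71 ± 0.13 (pairs 0.77 and 0.65), but its groups overlapped. Btla, an inhibitory receptor best known on lymphocytes, had pairs of 1.04 and 0.99 and passed also without the block. Its controls were at 7.63 and 7.55 and its labelled deleted cultures at 8.67 and 8.53. C5ar1, the receptor for the complement fragment C5a, went from 7.00 to 7.57 and from 6.21 to 7.09 (0.72 ± 0.14, adjusted p = 0.0182), and the labelled deleted culture of pair 2 lay only just above the control of pair 1. The semaphorin receptor Plxnc1 rose by 0.70 ± 0.12. Glp1r, the receptor for glucagon-like peptide 1, rose by 0.89 ± 0.16 with unequal pairs of 1.27 and 0.51 and groups that overlapped. Glp1r did not pass without replicate 1 (adjusted p = 0.0648), nor C5ar1 without replicate 2 (adjusted p = 0.0538).

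Among genes with roles inside the cell, Ifi209, an interferon-inducible gene of the family that senses DNA, rose by 0.90 ± 0.15 (pairs 1.20 and 0.61). Dock9, which activates the small GTPase CDC42, rose by 0.86 ± 0.14. Nckap1, a subunit of the WAVE complex that drives actin branching, rose by 0.64 ± 0.13. Bank1, an adaptor of B cell receptor signalling, rose by 0.75 ± 0.12, but its groups overlapped. Prdx4, a peroxidase of the endoplasmic reticulum, went from 6.72 to 7.73 and from 7.04 to 7.70 (0.84 ± 0.12, adjusted p = 0.00225). Hdc, which makes histamine, went from 8.65 to 9.52 and from 9.41 to 9.87 (0.67 ± 0.09), and the labelled deleted culture of pair 1 lay just above the control of pair 2. The anion transporter Slc26a6 rose by 0.77 ± 0.11 and Sbf2, a regulator of membrane traffic, by 0.68 ± 0.13. Trp53inp1, a stress gene under p53, rose by 0.67 ± 0.12, but its groups overlapped. Prrg4, a transmembrane Gla protein, rose by 0.83 ± 0.17 with pairs of 1.26 and 0.39. Without replicate 1 of clone 2, Prrg4 (adjusted p = 0.232) and Nckap1 (adjusted p = 0.0796) did not pass.

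**Figure D3:**
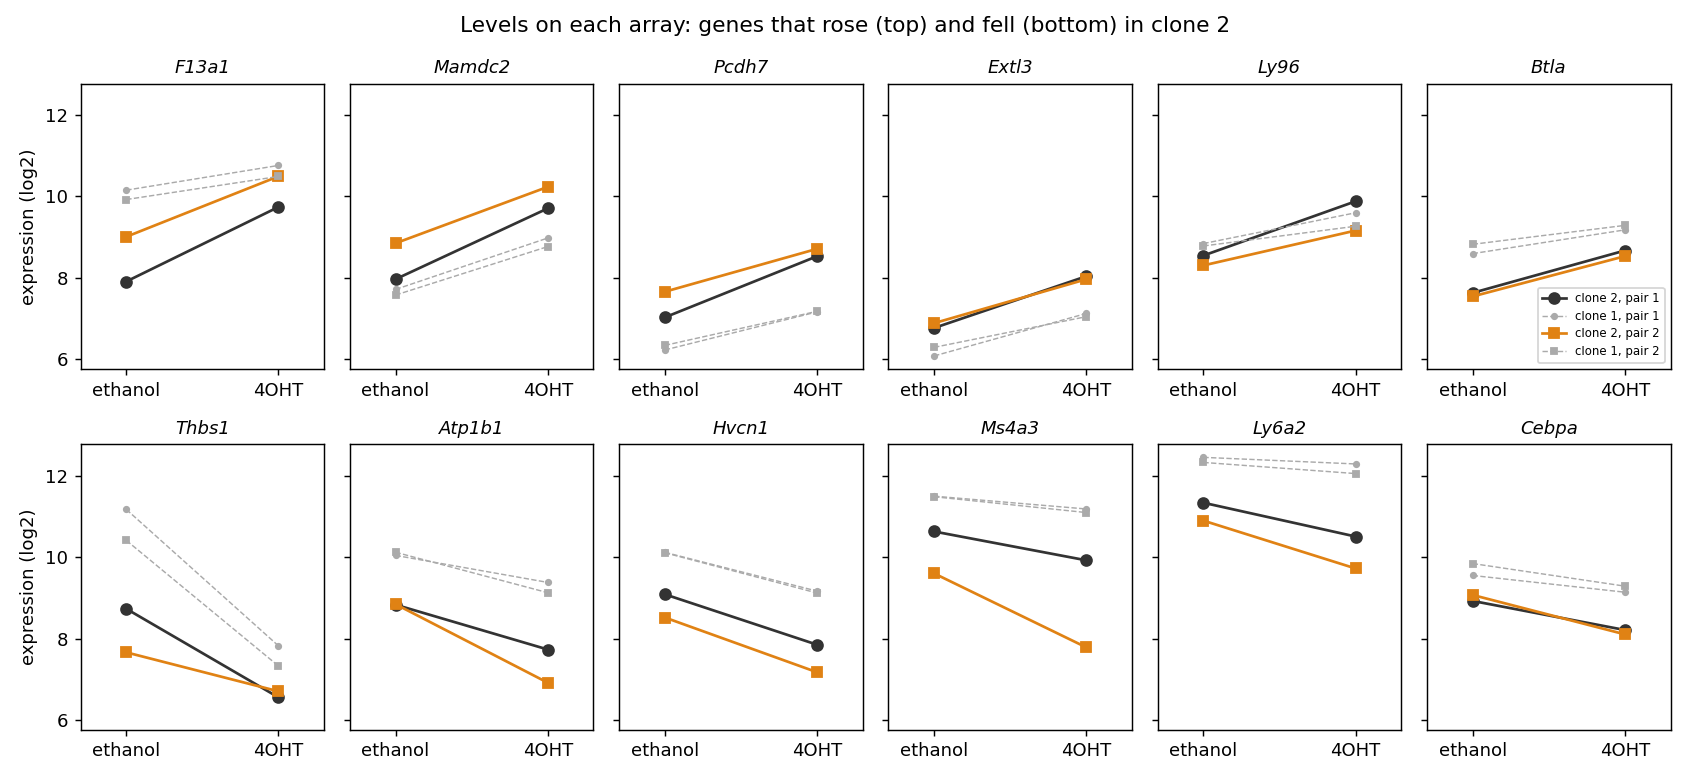
Expression level (log2) on each array for 6 genes that rose in clone 2 (top row) and 6 that fell (bottom row), with lines joining the ethanol and 4OHT cultures of a pair. Thick black and orange lines are pairs 1 and 2 of clone 2 and thin grey lines the pairs of clone 1. The clone 2 lines all slope the same way within a gene, steepest for F13a1 among the rises (1.83 and 1.48) and for Thbs1 in pair 1 among the falls (-2.17).

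The largest fall was that of Gm8773, a gene model (-1.59), followed by Thbs1 and Atp1b1. Thbs1, the matrix glycoprotein thrombospondin 1, went from 8.73 to 6.56 in pair 1 and from 7.66 to 6.71 in pair 2. Both labelled deleted values were below both controls, and the mean fall was -1.56 ± 0.19 (adjusted p = 0.000406), but the pairs, at -2.17 and -0.96, differed more than that SE shows. The SD of the 2 pair differences was 0.86, and with robust moderation Thbs1 did not pass (adjusted p = 0.229). Igfbp7, a secreted binding protein of insulin-like growth factors, went from 10.52 to 9.63 and from 10.66 to 9.62 (-0.96 ± 0.09, adjusted p = 5.48e-05), and was the 1 gene that passed when the 4 clone 2 arrays were fitted alone without the block. Atp1b1, the beta subunit of the sodium pump, went from 8.83 to 7.73 and from 8.85 to 6.92 (-1.51 ± 0.14). Its controls were alike and its labelled deleted cultures were not.

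Hvcn1, Ms4a3, Rnase2a and Cebpa, which have known roles in granulocytes or their precursors, were also among the 20 largest falls. Hvcn1, the proton channel that balances charge while the NADPH oxidase runs, went from 9.09 to 7.85 and from 8.52 to 7.18 (-1.29 ± 0.09, adjusted p = 7.06e-07), with like pairs of -1.24 and -1.34. Ms4a3, a tetraspan protein that marks granulocyte and monocyte progenitors, went from 10.63 to 9.92 and from 9.60 to 7.79. Its mean fall of -1.26 ± 0.15 passed (adjusted p = 0.000472), yet the labelled deleted culture of pair 1 was above the control of pair 2, so the groups overlapped. The pair differences of Ms4a3 had an SD of 0.78, and with robust moderation it did not pass (adjusted p = 0.983). Rnase2a, an eosinophil-associated ribonuclease, fell by -1.08 ± 0.14 (pairs -0.79 and -1.38). Cebpa encodes C/EBP alpha, the factor that starts granulocyte development, and it went from 8.93 to 8.21 and from 9.07 to 8.11 (-0.84 ± 0.09, adjusted p = 0.000119), with no overlap of the groups.

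Ly6a2, a member of the Ly6 family of surface proteins, went from 11.34 to 10.51 and from 10.90 to 9.72 (-1.0 ± 0.06, adjusted p = 5.4e-07), with no overlap of the groups. The inhibitory receptors Lilr4b (-0.98 ± 0.12) and Lilrb4a (-0.75 ± 0.13) are close relatives. They lie next to each other in RefSeq, with 4569 bases between them, and signal shared between their probe sets cannot be told apart. The groups of Lilr4b overlapped. S1pr3, a receptor for sphingosine 1-phosphate, fell by -0.72 ± 0.11, the orphan receptor Gpr141 by -0.69 ± 0.08 and Flt1, a receptor for VEGF, by -0.68 ± 0.10. Tspan2 (-0.75 ± 0.12) and Cldn12 (-0.77 ± 0.09) encode a tetraspanin and a claudin, Megf10 (-0.77 ± 0.14) an engulfment receptor and Cftr (-0.71 ± 0.13) a chloride channel. Tmed3, which sorts cargo leaving the endoplasmic reticulum, fell by -0.85 ± 0.08, Far2, which makes fatty alcohols, by -0.79 ± 0.10, and Bex6 by -0.88 ± 0.11. Cftr did not pass without replicate 2 of clone 2 (adjusted p = 0.208), nor Megf10 without replicate 1 (adjusted p = 0.0501).

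Among the genes that passed, some differed by nearly the same amount in both pairs. Cd33, a sialic acid-binding receptor of myeloid cells, rose by 0.26 in each pair (11.72 to 11.98 and 11.73 to 12.00). Rara, the retinoic acid receptor alpha, rose by 0.55 and 0.54. Gas7 (-0.40 and -0.42), Stxbp5 (-0.29 and -0.31), Megf9 (-0.44 and -0.45) and Ampd2 (-0.36 and -0.37) fell as evenly. The pairs were furthest apart for Thbs1, Ms4a3, Prrg4, Atp1b1 and Glp1r, already given, and for Lipg, endothelial lipase, at -0.24 and -0.94, which did not pass without replicate 2 (adjusted p = 0.0641) or with robust moderation (adjusted p = 0.924). With each array centred on its median Cd33 (adjusted p = 0.552), Gas7 (0.145), Stxbp5 (0.232), Megf9 (0.0858) and Ampd2 (0.0609) did not pass, and Gas7 also did not pass without replicate 1 (0.0951) or replicate 2 (0.0877) of clone 1. For 78 of the 136 genes the SE computed from the 2 pair differences alone was larger than the moderated SE printed here.

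Other genes that passed are named after their values were seen. Igf2r, a receptor that carries lysosomal enzymes and IGF2, rose by 0.60 ± 0.06, and Airn, an antisense RNA that overlaps it in RefSeq, by 0.64 ± 0.09. The strand that each probe set reads was not checked, so the pair counts as 1 locus. Aldh3b1 (0.32 ± 0.05) and Aldh3b3 (0.31 ± 0.06), neighbouring aldehyde dehydrogenase genes, also rose. Chsy1 (-0.31 ± 0.04), Csgalnact2 (-0.39 ± 0.07) and Chst13 (-0.27 ± 0.06), which build and sulfate chondroitin chains, fell. No list of chondroitin genes was counted, and Chst13 passed in only 6 of 14 settings. Serpinb1a, an inhibitor of neutrophil serine proteases, went from 11.79 to 11.24 and from 11.66 to 11.01 (-0.60 ± 0.05, adjusted p = 1.05e-05), and the activation marker Cd69 went from 11.29 to 10.73 and from 11.38 to 10.76 (-0.59 ± 0.06, adjusted p = 5.48e-05). Spn, the sialomucin CD43, fell by -0.61 ± 0.08 and the semaphorin Sema4a by -0.65 ± 0.06. Thbd (thrombomodulin, 0.54 ± 0.10), Calcrl (a receptor subunit for adrenomedullin, 0.53 ± 0.09) and the TNF family ligand Tnfsf14 (0.54 ± 0.09) rose. The groups of Thbd overlapped.

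Lists of related genes were described by counts beside all genes, of which 0.682% passed, 18.36% were above 0 in both pairs and 21.95% below 0 in both. Of 27 measured genes reported as RUNX1 targets, none rose, 3 fell and 24 did not pass. The 3 were Cebpa, Kit, the stem cell factor receptor (9.95 to 9.50 and 10.15 to 9.74, -0.43 ± 0.07), and Ccl3, a chemokine (-0.28 ± 0.04). Of 18 stem and progenitor genes 2 fell, Kit and Prom1, which encodes the surface protein CD133 (-0.54 ± 0.10). Cd34 was at 11.11 and 11.23 in pair 1 and 11.55 and 11.57 in pair 2 and did not pass. The 20 genes of the MLL fusion and Hoxa program had no member that passed, with a median of 0.03 and values between -0.13 and 0.18. Hoxa9 differed by 0.05 ± 0.05, Meis1 by 0.02 ± 0.07 and Myc by 0.06 ± 0.04, and none of the 3 passed. Centring each array on its median turned the sign of Meis1.

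In the primary granule list of 14 genes, Hdc rose and 3 fell. Those that fell were Ms4a3, the serine protease gene Prss57 (-0.34 ± 0.07) and the chaperone gene Calr (-0.18 ± 0.04). The list is not limited to granule proteins, as Ms4a3 is a tetraspan protein, Calr a chaperone and Hdc makes histamine. The main granule proteases and peroxidase of that list did not pass, with Mpo at -0.03 ± 0.03 and Elane at -0.01 ± 0.03. Without replicate 2 of clone 2, neither Prss57 nor Calr passed (adjusted p = 0.385 for each). In the oxidative burst list of 14, Hvcn1 and Ncf1, a cytosolic subunit of the NADPH oxidase (11.41 to 10.96 and 11.17 to 10.55, -0.54 ± 0.06, adjusted p = 0.000118), fell and Prdx4, listed there as a peroxidase, rose. Of 20 monocyte and macrophage genes F13a1 alone rose and none fell, with Csf1r, through which the cytokine M-CSF acts, at 0.31 ± 0.13 (adjusted p = 0.887). Spi1, which encodes PU.1, was at -0.12 ± 0.05 and did not pass.

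Surface and matrix lists had members that passed in both directions. Of 19 integrin and adhesion genes, Pcdh7 and Itga6, an integrin subunit that binds laminin (0.34 ± 0.07), rose, and Thbs1 and Vcam1, a ligand for integrins (10.79 to 10.36 and 10.38 to 9.51, -0.66 ± 0.10), fell. Of 23 heparan sulfate and matrix genes, Mamdc2 and Extl3 rose and Igfbp7 and Thbs1 fell. Of 16 chemokine genes C5ar1 rose and Ccl3 and Cxcr4, the receptor that holds progenitors in the marrow (-0.35 ± 0.06), fell. In limma Itga6 did not pass in the clone 2 arrays fitted alone with the block (adjusted p = 0.0742) or with array weights (adjusted p = 0.0927). On centred arrays Itga6 (adjusted p = 0.728), Cxcr4 (0.106) and Ccl3 (0.142) did not pass. From pair 2 alone the Itga6 effect was 0.26. Of 18 Toll-like receptor and lipopolysaccharide genes Ly96 and Tlr13 rose and none fell. Of 24 interferon response genes Ifi209 rose and Ifitm1, an antiviral membrane protein (-0.38 ± 0.05), fell.

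Some lists had a larger share of genes below 0 in both pairs than all genes had, with few or no members that passed. Of 26 genes of unfolded protein and amino acid stress, 18 were below 0 in both pairs (69.2%, against 21.95% of all genes), 1 was above 0 in both, and Calr alone fell, with a median of -0.10. Of 24 MYC and ribosome biogenesis genes 15 were below 0 in both pairs (median -0.04). So were 12 of 23 sterol and fatty acid synthesis genes (median -0.05) and 14 of 28 S phase genes (median -0.04). No gene of these lists passed. In pair 1 the sterol median (-0.002) and the S phase median (-0.019) were not below that of all genes (-0.022). In pair 2 they were -0.13 and -0.07, against 0.02. The brighter groups of all genes were also below 0 in pair 2 (-0.09 and -0.07). The part of level in these lists was not tested. Of 27 p53 targets Trp53inp1 rose and none fell, and of 20 BCL2 family and apoptosis genes none passed, with Bcl2 at -0.38 ± 0.09 (adjusted p = 0.119).

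**Figure D4:**
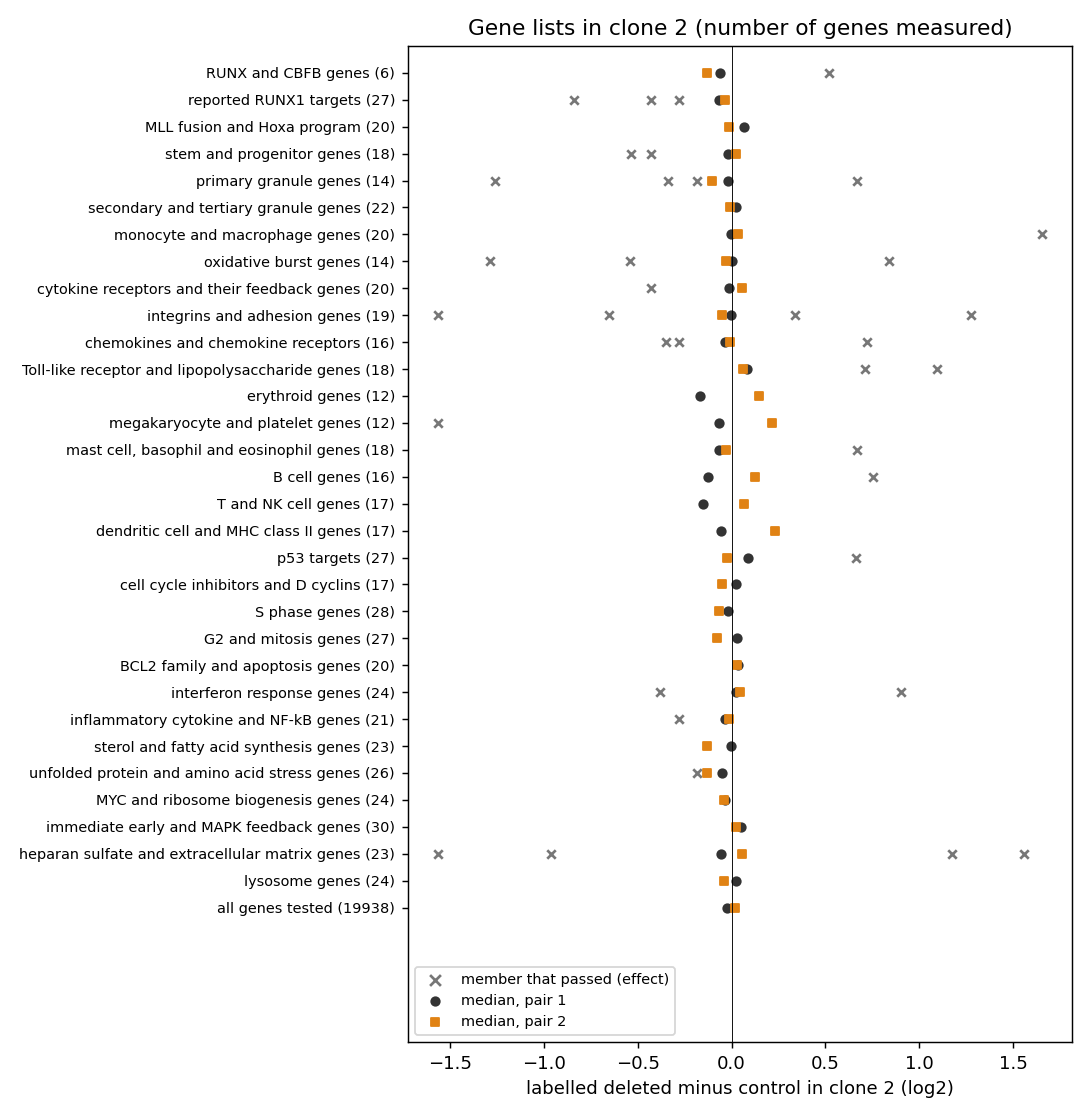
For each gene list, with the number of genes measured in brackets, the median log2 difference in pair 1 (black) and pair 2 (orange) of clone 2, and grey crosses at the effects of the members that passed. List medians lie close to 0 in both pairs, while single members reach from -1.56 (Thbs1) to 1.66 (F13a1).

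Late granulocyte genes set the 2 replicates of clone 2 apart in both groups. Some genes that passed were lower in replicate 2 in both groups too, among them Ms4a3, Lipg, Peg10 and Lilr4b. Others, such as Hdc and Mamdc2, were higher there. The part of the replicate gap in the differences of these genes was not tested. In the controls and labelled deleted cultures of replicate 1 the granule gene Ngp was at 12.04 and 12.01, against 10.34 and 9.47 in replicate 2. Camp, the cathelicidin gene, was at 9.68 and 9.58 against 7.59 and 7.17, and S100a9 at 9.55 and 9.61 against 7.12 and 7.01. Of 22 secondary and tertiary granule genes, 19 were higher in replicate 1 in both groups (86.4%, against 21.2% of all genes). Between labelled deleted and control cultures the same list had no gene that passed and a median of 0.00, with 8 genes above and 8 below 0 in both pairs. Ngp in that list was at -0.45 ± 0.12 and did not pass (adjusted p = 0.162). Its fall lay almost wholly in pair 2 (-0.87), with 12.04 and 12.01 in pair 1. In limma Ngp passed as a fall in the clone 2 arrays fitted alone with the block (adjusted p = 3.88e-10) and on centred arrays (adjusted p = 0.000605). Those p-values use spread borrowed from other genes and do not measure the gap between the 2 pairs of Ngp. The effect of -0.45 uses only clone 2 arrays, so leaving out replicate 1 or 2 of clone 1 could not change it. Lists for erythroid genes, for T and NK cells and for dendritic cells and MHC class II also had no gene that passed. In the B cell list Bank1 rose and in the megakaryocyte and platelet list Thbs1 fell. In the mast cell, basophil and eosinophil list Hdc rose, but 9 of its 18 genes were below 0 in both pairs and 2 above (median -0.04).

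Clone 1 had the same design, with its own 2 pairs, and shares no array with clone 2. The effects of both clones came from 1 fit with the same spread for a gene. Calls in the 2 clones are therefore not independent. In clone 1, 36 genes passed (0.181%), 12 higher (0.0602%) and 24 lower (0.12%). Of these, 27 also passed in clone 2 with the same direction, which is 19.9% of the clone 2 genes and 75.0% of the clone 1 genes. Of the 136 clone 2 genes 131 had the same direction in clone 1 (96.3%, against 51.3% of all genes). For 127 the difference was smaller in clone 1, which choosing genes by their clone 2 difference favours. This count does not show that clone 2 responded more. The median clone 1 difference was 0.33 for the genes that rose in clone 2 and -0.23 for those that fell. The clones also share replicate numbers, and over all genes the differences of same-numbered pairs correlated between the clones at r = 0.45 (pair 1) and 0.31 (pair 2), against 0.14 and -0.23 for pairs of unlike number. The part of the shared number in the agreement of the clones was not tested.

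A test of the difference between the clones' effects passed for 2 genes (0.01%), 1 in each direction (0.00502% each). The rise of F13a1 was larger in clone 2 by 1.07 ± 0.11 (adjusted p = 0.00201), with clone 1 pairs of 0.61 and 0.57, and its controls also started lower in clone 2, by 1.58. The fall of Ly6a2 was larger in clone 2 by -0.78 ± 0.09 (adjusted p = 0.00276), with clone 1 pairs of -0.16 and -0.27. For F13a1 and Ly6a2 the call was lost without the block or without the level trend in the prior spread, and the count of 2 became 40 from pair 1 of clone 2 alone and 224 from pair 2 alone. Thbs1 fell further in clone 1 (-3.22) than in clone 2, a difference of 1.65 ± 0.26 that did not pass (adjusted p = 0.075). It passed with array weights (adjusted p = 0.00314) and on arrays centred on their medians (1.64, adjusted p = 3.26e-12). C5ar1 was higher in both clone 2 pairs and lower in both clone 1 pairs (-0.12 and -0.33), a difference that did not pass either (0.95 ± 0.19, adjusted p = 0.602) except on centred arrays (0.93, adjusted p = 0.00307). Dock9 (0.02 in clone 1), Flt1 (-0.08) and Cftr (-0.08) passed in clone 2, and their differences between the clones did not pass. Those of Dock9 (adjusted p = 0.0174), Cftr (adjusted p = 0.0231) and Ms4a3 (adjusted p = 8.08e-05) passed on centred arrays.

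**Figure D5:**
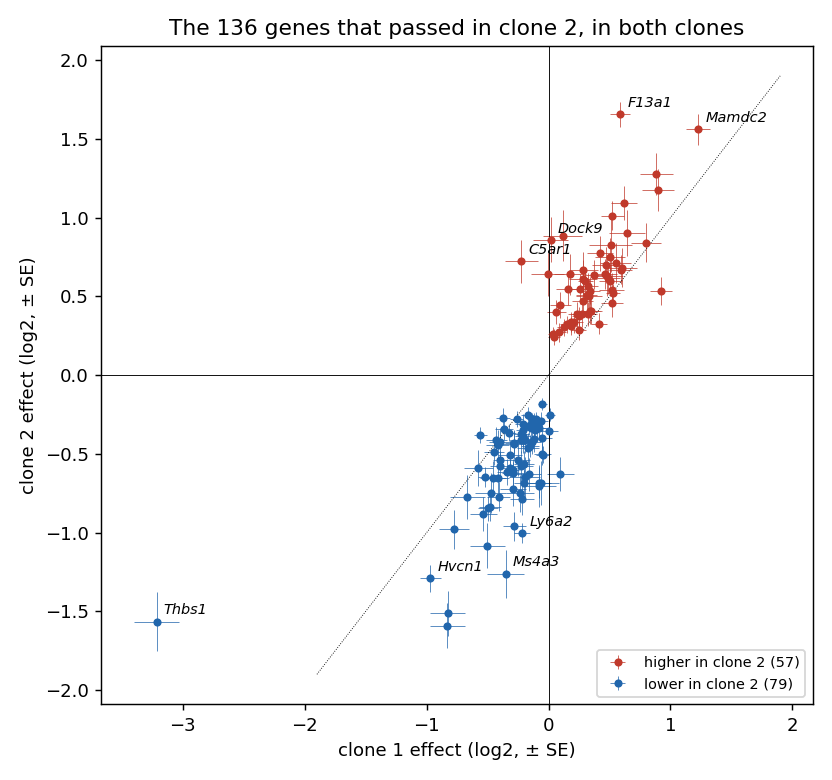
Effect (labelled deleted minus control, log2, ± moderated SE) of the 136 genes that passed in clone 2, with clone 1 on the x axis and clone 2 on the y axis, and a dotted line of equal effects. Of the points, 131 have the same sign in both clones and 127 are smaller in clone 1, which choosing genes by clone 2 favours. Thbs1 lies far to the left (-3.22 in clone 1) and F13a1 high above the line.

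The controls of clone 2 were a different starting point from those of clone 1. In a fit of 4 cells without the block, 792 genes differed between control clones (3.97%), 320 higher (1.6%) and 472 lower (2.37%) in clone 2. Cd34, a surface marker of progenitors, averaged 11.33 in clone 2 and 5.85 in clone 1 (5.48 ± 0.17). Xist was higher in clone 2 by 6.09, and the Y-linked genes Eif2s3y and Uty were lower by -5.21 and -4.94. Lin28b, an RNA-binding protein of fetal progenitors, was higher by 4.09, with Taf9b (5.08), Tut4 (4.44), Bmpr1a (3.95), Tenm3 (3.66) and Ptprk (3.57). The developmental factor Eya1 was lower by -5.72, with Rbp4 (-4.72), Tbc1d19 (-4.07), Macroh2a2 (-4.03), Zfp979 (-3.98) and F7 (-3.89). None of these passed between labelled deleted and control cultures of clone 2. Of the 136 genes that passed in clone 2, 54 differed between the control clones, among them Igfbp7 (2.71 higher in clone 2) and Thbs1 (-2.59). Each clone is 1 line, and a clone cannot be told apart from any batch it was grown or hybridised in.

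Promoters were searched for TGTGGT, a form of the core letters that RUNX proteins bind, on both strands (its other strand reads ACCACA) in the 250 bases before each RefSeq start (build GRCm38.p6). Of 32851 windows 14.05% held it. Among the genes tested that had a window, 13.73% of 15563 held it in at least 1 window, against 19.15% of 47 genes that rose in clone 2 and 25.86% of 58 that fell. Counting only genes with a single window the shares were 12.1%, 18.9% and 20.5%. These are counts of letters in a window and not of bound sites. Of the 20 genes with the largest rises 15 had a window and 2 held the letters (Btla and C5ar1), and of the 20 with the largest falls 16 had a window and 4 did (Ly6a2, Bex6, Tspan2 and Gpr141). Neither of 2 Runx1 windows held them. Shown are the windows of 2 genes that fell and 2 that rose, 5′ to 3′ on the gene's strand, with the matched letters in capitals. Ly6a2 lies at chr15:75135129-75135378 on the minus strand and Gpr141 at chr13:19824258-19824507 on the minus strand. Btla lies at chr16:45224087-45224336 on the plus strand and C5ar1 at chr7:16259339-16259588 on the minus strand.
Ly6a2: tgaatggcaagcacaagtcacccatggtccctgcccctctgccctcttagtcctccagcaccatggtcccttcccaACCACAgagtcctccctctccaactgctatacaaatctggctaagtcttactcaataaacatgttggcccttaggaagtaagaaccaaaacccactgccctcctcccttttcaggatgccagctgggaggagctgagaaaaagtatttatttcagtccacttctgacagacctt
Gpr141: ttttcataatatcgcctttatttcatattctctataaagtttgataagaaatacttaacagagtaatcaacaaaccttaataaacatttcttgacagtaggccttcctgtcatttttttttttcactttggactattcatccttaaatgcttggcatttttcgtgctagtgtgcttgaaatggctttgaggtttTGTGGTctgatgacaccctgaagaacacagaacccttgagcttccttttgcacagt
Btla: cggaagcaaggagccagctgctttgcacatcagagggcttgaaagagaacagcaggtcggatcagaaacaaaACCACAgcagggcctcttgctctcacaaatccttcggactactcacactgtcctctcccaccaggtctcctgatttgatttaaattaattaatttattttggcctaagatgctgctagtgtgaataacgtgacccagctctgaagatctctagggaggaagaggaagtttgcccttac
C5ar1: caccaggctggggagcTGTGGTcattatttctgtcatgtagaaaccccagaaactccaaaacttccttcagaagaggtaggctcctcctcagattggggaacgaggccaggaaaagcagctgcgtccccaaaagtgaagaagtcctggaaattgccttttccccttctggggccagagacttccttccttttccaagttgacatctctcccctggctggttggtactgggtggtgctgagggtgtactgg
The match begins 174 bases before the start in Ly6a2, 56 in Gpr141, 178 in Btla and 234 in C5ar1. Ly6a2, whose fall differed between the clones, and Btla carry the ACCACA form, and Gpr141 and C5ar1 the TGTGGT form, so the form did not divide genes that rose from genes that fell among these 4.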

How the data were processed

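Total RNA of each culture was made into labelled cDNA with whole-transcript kits and hybridised to 1 Affymetrix array, per the labels' protocols. The deposited values are RMA probe-set levels, per the submitters' processing notes. Their log2 scale was read from the deposited values (2.60 to 13.77), and RMA's version and chip definition are unstated. Gene names come from the platform annotation and RefSeq. For 999 genes with several probe sets the brightest was used.

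limma 3.58.1 in R 4.3.3 was fitted to all 8 arrays, with the set (clone and replicate number) as a block, an effect per clone and a prior spread that follows the level, which left 2 residual degrees of freedom plus 13.3 from the prior. The SE is moderated, so p-values rest on a spread between these cultures that is largely borrowed from other genes. They do not measure the gap between a gene's own 2 pairs alone. Within each set the paired arrays strayed together (r from 0.72 to 0.82) from the mean of their label over both clones. That r therefore includes the difference between the clones. Within clone 2, from its own group means, it was 0.25, and the pairing comes from the sample titles. The fit was also run on simulated data as a check of the code, and the outcome is not reported here. The members, lists, naming rule and tests were chosen with earlier results of these data known. The rule names the targeted genes and the 20 largest changes per direction past the threshold and in the same direction in both pairs. It adds up to 4 members per list (of a list with none past the threshold, 1) and 11 genes always. Up to 8 per direction are named for the clone comparisons. Last come the 6 genes whose pairs differ most and the 6 whose pairs differ least in proportion to their mean. Some always-named and single list members are given by their lists' counts. Symbols that are only model names were passed over in the ranks. The precision is limited by 2 pairs.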

Additional observations from a re-analysis of the deposited data

Results flagged for a closer look

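The rise of F13a1 was larger in clone 2 than in clone 1 by 1.07 on the log2 scale, by limma's test of the difference between the clones. The fall of Ly6a2 was larger in clone 2 by the same test, at -0.78. C5ar1 was higher in both clone 2 pairs (mean 0.72) and lower in both clone 1 pairs, and was singled out by these directions, which are not a test of the difference. limma's test of that difference did not pass (adjusted p = 0.602), except on arrays centred on their medians (adjusted p = 0.00307).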

How the results depend on the processing

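The counts of genes were recomputed under other settings, and where a count moved the cause was not tested. Without the replicate block 4 genes passed in clone 2 (2 higher, 2 lower; 484 at an unadjusted p under 0.05) and 0 for the difference between the clones (limma, 178 unadjusted). With the clone 2 arrays alone and no replicate block, limma passed 1 gene, 0 higher and 1 lower (425 unadjusted). Without the variance trend 3 passed (2 higher, 1 lower) and 0 for the difference between the clones in limma (304 unadjusted). Over all probe sets limma passed 0 in clone 2, 0 higher and 0 lower (1269 unadjusted), 0 for the difference (776 unadjusted) and 477 between control clones. Array weights gave 4 for the difference and 1599 between control clones. On centred arrays Ccl3, Prss57, Calr, Itga6, Cxcr4, Cd33, Gas7, Stxbp5, Megf9 and Ampd2 did not pass. Centred arrays gave 12 for the difference and genes above the median level 1. Leaving out a replicate of either clone gave 161 to 665 genes in clone 2 (64 to 176 higher and 90 to 504 lower), 5 to 224 for the difference and 385 to 588 between control clones. Of the 136 clone 2 genes 121 passed again without replicate 1 of clone 2 and 111 without its replicate 2. Without replicates 1 and 2 of clone 2 in turn, the effect was -0.0358 and 0.015 for Elane, -0.0917 and 0.0238 for Mpo and -0.0634 and 0.108 for Meis1, which was at -0.00815 when arrays were centred, and none of them passed. F13a1, Mamdc2, Hvcn1, Igfbp7, Extl3, Btla, Cd69 and Gm8773 passed in 12 of 14 settings, the most of any of the 136 genes. The test of all probe sets, in which none passed, and that of genes above the median level are not among the 14. Leaving out clone 1 replicates and cyclic loess were chosen after seeing the data.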
